A study of Mus musculus with 4 samples.

Results

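The 35 genes described here encode proteins that license, fire and elongate DNA replication or feed it with nucleotides and histones, and they were taken as a list of symbols. All 35 were found among the 56980 genes of the count matrices. DNA replication begins when Cdc6 and Cdt1 load the Mcm2 to Mcm7 helicase onto origins in G1, and Cdc45 and the GINS complex turn the helicase on in S phase. Polymerase α with its primase then starts new strands, PCNA holds the polymerases on the template, and Fen1 and Lig1 join the Okazaki fragments. Many of these genes are transcribed together at the G1/S transition by E2F factors, and in skin they mark the dividing basal layer and the growing hair bud, whereas cells that leave the basal layer stop dividing.

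Single cells from dorsal skin of mouse embryos, E16.5 per the labels, were sorted on Epcam, an epithelial surface protein, and α6 integrin, which marks cells on the basement membrane. The study's list of litters gives another day for its single-cell litter, and the labels were followed. The 2 Ctrl libraries were Suv39h1 f/f, Suv39h2-/-, Setdb1 f/f and K14CreERT2 negative, so these controls also lacked Suv39h2, and the 2 TKO (triple knockout) libraries had the identical floxed and null alleles together with K14CreERT2. Both groups received tamoxifen. The 3 targeted genes encode enzymes that place the silencing histone mark H3K9me3. K14CreERT2 is a recombinase driven by the keratin 14 promoter, which is active in basal keratinocytes. Its loss of the targets was mosaic, so the TKO libraries can hold cells that kept the enzymes. Each library came from 1 embryo.

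The 4 libraries held 3804 to 5785 barcodes and 70749496 to 89655247 UMIs (unique molecular identifiers, 1 per captured RNA molecule). Library pairs shared 2 to 12 barcodes, and 0 to 4 after filtering. Of 9195 keratinocytes, 4125 were basal-like, 1764 hair follicle-like and 1701 differentiating-like. A further 1455 keratinocytes, 17.8% and 15.9% of those in the Ctrl and 14.2% and 13.9% of those in the TKO libraries, lay in 4 clusters that the markers did not name, and neither they nor 150 Merkel-like cells entered the comparisons. TKO cells were deeper, with a median of 30072 and 28052 UMIs per keratinocyte against 21963 and 17333 in Ctrl. Levels below are in CPM, the UMIs of a gene per 1000000 UMIs of the same cells. Setdb1 stood at 72.5 and 59.2 CPM in Ctrl and 41.1 and 43.2 in TKO basal-like cells (log2 change -0.64 ± 0.13 SE, adjusted p = 0.0215). Suv39h1 stood at 29.6 and 29.0 against 28.2 and 22.8 (-0.20, adjusted p = 0.369), and Suv39h2, deleted in every embryo, still gave 15.8 to 23.8. The kit reads the 3' end of a transcript, so a level does not check a deletion elsewhere in the gene. A basal-like cluster with Fosl1 and other stress-response genes in the lead held 22.1% and 47.4% of the Ctrl and 41.8% and 17.2% of the TKO basal-like cells. Another basal-like cluster, of 332 cells (151 and 85 in Ctrl, 34 and 62 in TKO), was led by Epb41l4b, Notch1, Zfp750 and Notch3, of which Notch1, Notch3 and Zfp750 are known from keratinocytes that begin to differentiate. The marker lists placed it with the basal-like cells, and clusters led by the same genes were placed with the differentiating-like cells when doublets were kept or at least 3000 genes per cell were required. Counts without it are given below, as alternatives chosen after seeing the data. Some clusters were uneven between the genotypes. In the clustering of all cells, a keratinocyte cluster led by Psca and Mal held 39 and 28 Ctrl and 271 and 211 TKO cells. Without Harmony, the step that aligns the libraries, a basal-like cluster led by Slc24a3 held 445 and 317 Ctrl and 8 and 18 TKO cells, and one led by Mest held 6 and 8 against 136 and 526. Their part in the results was not tested beyond the counts without Harmony.

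The promoters of the genes were examined for the letters that E2F factors and the CCAAT-binding factor NF-Y recognise. RefSeq promoter sequences, 250 bases before to 50 after the annotated start (table on GRCm38.p6), were matched for 30 of the 35 genes. The E2F letters searched were TTTCCCGC, TTTCGCGC, TTTGCCGC and TTTGGCGC on both strands. They were present in 12 of the 30 promoters (40.0%), against 704 of 27025 genes with a promoter in the table (2.605%). CCAAT on either strand was present in 21 of the 30 (70.0%), against 41.1% of all genes. The stretches of 5 genes are shown because they belong to genes the results turn on or show how the matches are arranged. Each reads 5′ to 3′ on the gene's strand, with E2F letters in capitals and coordinates placed on GRCm39 by an exact match of the sequence. The searched window of Mcm3 held 2 E2F matches, of which the stretch shown holds 1, and that match lies inside an exon. The Mcm3 and Mcm5 stretches hold CCAAT letters at 3 places each.
Mcm3, chr1:20890507-20890706, minus strand, with a match beginning 19 bases after the start: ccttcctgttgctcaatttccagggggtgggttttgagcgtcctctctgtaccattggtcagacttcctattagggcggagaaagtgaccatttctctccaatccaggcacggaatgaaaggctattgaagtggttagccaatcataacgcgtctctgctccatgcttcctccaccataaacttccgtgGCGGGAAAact
Mcm5, chr8:75835967-75836166, plus strand, with matches on opposite strands that overlap, at -153 and -149: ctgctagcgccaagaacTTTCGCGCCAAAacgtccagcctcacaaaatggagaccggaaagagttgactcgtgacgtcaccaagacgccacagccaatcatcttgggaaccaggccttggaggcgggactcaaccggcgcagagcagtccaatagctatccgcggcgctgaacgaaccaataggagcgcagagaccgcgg
Pclaf, chr9:65797589-65797618, plus strand, with a match at -5 inside an exon of the GENCODE annotation: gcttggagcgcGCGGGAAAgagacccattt
Tyms, chr5:30278614-30278813, minus strand, with no match: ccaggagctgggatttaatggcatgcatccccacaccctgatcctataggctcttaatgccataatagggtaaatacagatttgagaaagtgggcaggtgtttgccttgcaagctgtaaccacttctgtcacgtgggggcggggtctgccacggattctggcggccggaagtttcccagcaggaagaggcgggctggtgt
Rrm1, chr7:102090712-102090911, plus strand, with no E2F match and CCAAT letters at 2 places: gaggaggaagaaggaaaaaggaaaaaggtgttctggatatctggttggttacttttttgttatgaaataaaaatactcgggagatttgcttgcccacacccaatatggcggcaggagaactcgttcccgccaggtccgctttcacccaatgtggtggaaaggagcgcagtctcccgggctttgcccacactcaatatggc
Among the 9 genes called between the genotypes below, Pclaf and Mcm3 held E2F letters in their promoters and Tyms, Rrm1, Rrm2, Chaf1b, Slbp, Ccne1 and Mcm10 did not. A match is a description of the sequence, and its absence says only that these letters are not in this window.

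To check that the genes behave as replication genes in these cells, S phase cells were first compared with all other basal-like cells of the same library. S phase was called from 20 S genes and 54 G2M genes that are not among the 35, after thinning each cell to 5000 UMIs. All 35 genes were higher in S phase cells (35 of 35 past an adjusted p of 0.05 in edgeR's quasi-likelihood test with library as a block, against 9.99% of all 14850 genes tested). The median log2 difference was 1.24, with a range from 0.47 ± 0.06 (SE) for Rrm1 to 2.49 for Cdc6, which loads the helicase. Ung, which removes uracil from DNA, followed at 2.33, and E2f1, a transcription factor of the G1/S transition, at 2.15. The last 3 were singled out after their values were seen. Among the 6 role groups the lowest median was that of the nucleotide supply genes (0.72) and the highest that of the regulators and checkpoint genes (1.57). The label of the list was therefore borne out by genes that took no part in the phase calls.

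**Figure D1:**
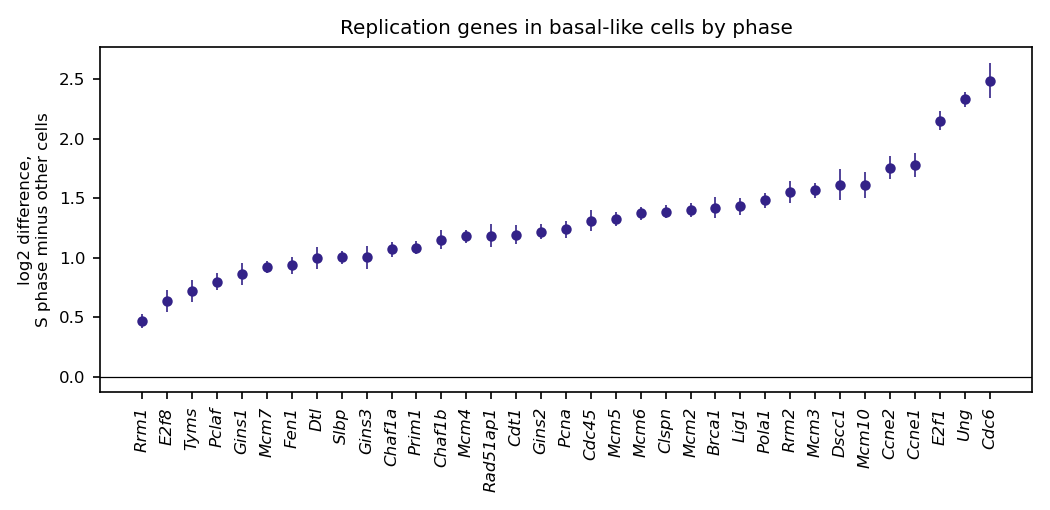
Log2 difference between S phase and other basal-like cells for each of the 35 replication genes, fitted over the 4 libraries with library as a block; points are estimates and bars standard errors. All 35 points lie above 0, from 0.47 for Rrm1 to 2.49 for Cdc6.

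The place of each gene within the cycle differed. In Ctrl basal-like cells a median of 53.5% of a gene's UMIs came from S phase cells and 30.6% from G2M cells. In TKO the medians were 47.6% and 44.8%. The mean level was highest in S phase cells for 32 of the 35 genes in Ctrl, and in G2M cells for Pclaf, Rrm1 and E2f8. For Pclaf and Rrm1 this rested on Ctrl replicate 2, since both were higher in S phase cells in Ctrl replicate 1. Pclaf, a small protein that binds PCNA, drew 46.4% of its Ctrl UMIs from S phase and 51.2% from G2M cells. Rrm1, the large subunit of ribonucleotide reductase, drew 39.8% and 45.6%. By mean level, the same 3 genes were highest in G2M cells of Ctrl hair follicle-like cells. In TKO the mean level of all 35 was highest in S phase cells in both classes. By share of UMIs, Pclaf, Rrm1 and E2f8 still drew more from G2M than from S phase cells in TKO, in both classes. In TKO basal-like cells the G2M and S phase shares were 60.05% and 38.4% for Pclaf, 59.7% and 34.0% for Rrm1, and 54.9% and 40.5% for E2f8.

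The share of cells in S phase was compared next, because all 35 genes were higher in those cells. Of basal-like cells, 34.7% and 28.6% of Ctrl and 30.6% and 29.6% of TKO cells were called S phase, with exact 95% Clopper-Pearson intervals of 32.0 to 37.5%, 26.2 to 31.1%, 27.4 to 34.0% and 26.4 to 33.0% that cover counting error only. The groups overlapped, with means of 31.6% ± 4.32 and 30.1% ± 0.713 (SD, n = 2 each; exact two-sided permutation p = 1.0, and no such test of 2 against 2 can go below 0.3333). Without Ctrl replicate 1 the difference of -1.51 percentage points turned to 1.55. In hair follicle-like cells the shares were 31.2% and 27.8% in Ctrl and 34.3% and 31.5% in TKO. They did not overlap (difference 3.37 percentage points, exact permutation p = 0.3333), and without Harmony the difference turned negative. Differentiating-like cells held few S phase cells, 1.36% and 3.09% in Ctrl and 4.37% and 2.70% in TKO, which were 9, 14, 9 and 10 cells (exact permutation p = 0.6667). The intervals ran from 0.624 to 2.57% and 1.70 to 5.13% in Ctrl and from 2.02 to 8.13% and 1.30 to 4.90% in TKO. Each of these shares rested on 206 to 1375 cells of at least 5000 UMIs, and 74 keratinocytes below that depth, 24 and 39 in Ctrl and 4 and 7 in TKO, had no phase call. Without thinning, S phase shares were 34.4% and 28.9% against 29.4% and 29.1% in basal-like cells, and 29.2% and 23.2% against 35% and 31.3% in hair follicle-like cells. Between 126 and 228 basal-like cells per library lay within 0.05 of the cut of the phase score.

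The G2M share moved more than the S share. It was 29.0% and 28% in Ctrl and 49.2% and 46.1% in TKO basal-like cells, a difference of 19.2 percentage points in means (exact permutation p = 0.3333), and 29.7% and 27.5% against 52.2% and 48.8% without thinning. It was 35.3% and 31.2% against 48.1% and 40.1% in hair follicle-like cells, and in differentiating-like cells 9.98% and 14.8% against 33.0% and 19.7%. The G1 share was lower in both TKO libraries than in both Ctrl libraries in all 3 classes. With an S score above 0 as the only condition and no G2M condition, the S share difference became 10.8 percentage points in both basal-like and hair follicle-like cells. The phase scores are a range, so cells between S and G2M can fall on either side of the rule.

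**Figure D2:**
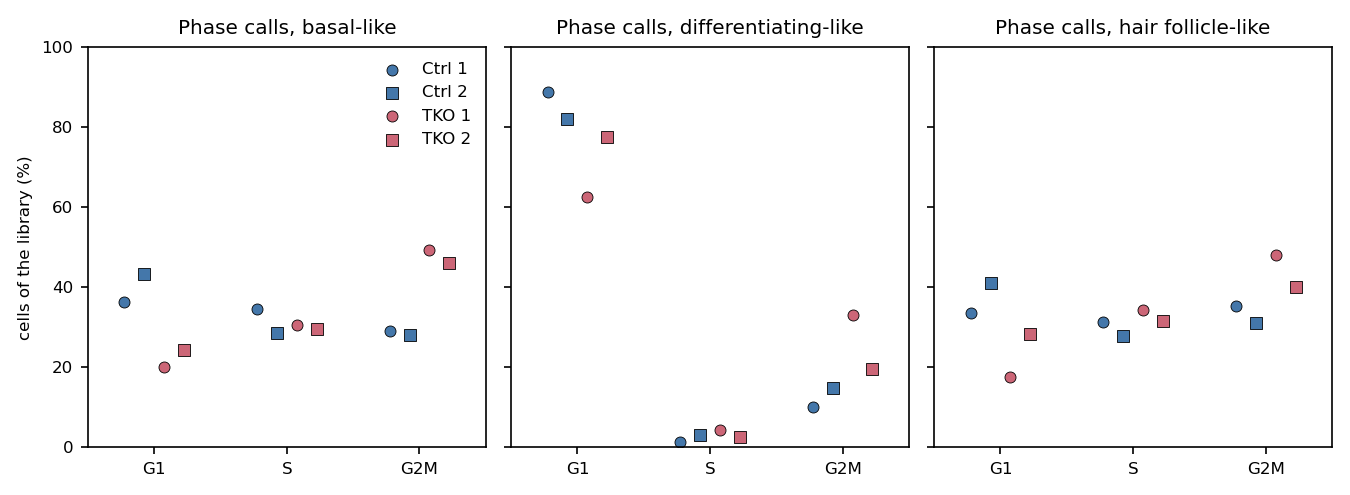
Share of the cells of each library called G1, S or G2M (vertical axis, percent) in the 3 keratinocyte classes, with Ctrl in blue, TKO in red, circles for replicate 1 and squares for replicate 2. S phase shares of basal-like cells overlap between the genotypes, while G2M shares are 29.0% and 28% in Ctrl and 49.2% and 46.1% in TKO.

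In basal-like cells as a whole, 5 of the 35 replication genes rose in TKO, the 3 nucleotide supply genes, the chromatin assembly gene Chaf1b and the PCNA partner Pclaf, and 0 fell. No gene of helicase loading passed the test, and differences between role groups were not tested. Those 5 of 35 stand beside 8.07% of all 17147 genes raised and 4.69% lowered. No gene was lowered at an unadjusted p under 0.05 either, while 15 were raised at that level, against 16% of all genes tested. DESeq2 called 6 raised and 0 lowered, beside 9.0% and 5.44% of all genes. The median log2 change was 0.19, against -0.01 over all genes tested, and 26 of the 35 changes were positive. For 18 of the 35 genes both TKO libraries lay above both Ctrl libraries, which 29.9% of all genes tested did. The count moved with single libraries, as it did over all genes: without Ctrl replicate 1, 0 of the 35 and 2.71% of all genes were raised, and without Ctrl replicate 2, 2 of the 35 and 3.11%. The fitted changes without Ctrl replicate 1 were 0.62 for Tyms, 0.68 for Rrm2, 0.67 for Chaf1b, 0.46 for Rrm1 and 0.43 for Pclaf. Without TKO replicate 1 the fitted change of Chaf1b was 0.48. The count was 5 without the stress-led cluster, beside 8.41% of all genes raised. Without Harmony it was 10, beside 7.48% of all genes. Without the Notch1-led cluster it was 6, beside 8.41% of all genes, with a median log2 change of 0.16.

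Summed over the 35 genes, basal-like cells held 2035 and 2004 CPM in Ctrl and 2443 and 2287 in TKO. Both TKO values lay above both Ctrl values. At a fixed depth of 5000 UMIs per cell the mean cell held 9.66 and 9.12 replication UMIs in Ctrl and 11.8 and 11.0 in TKO. Within G1 cells the sums were 934 and 987 in Ctrl and 1158 and 907 in TKO, and within G2M cells 1678 and 2076 against 2062 and 1995. The groups overlapped in both of these phases. Within S phase cells the sums were 3384 and 3244 in Ctrl and 3845 and 3744 in TKO, with no overlap.

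**Figure D3:**
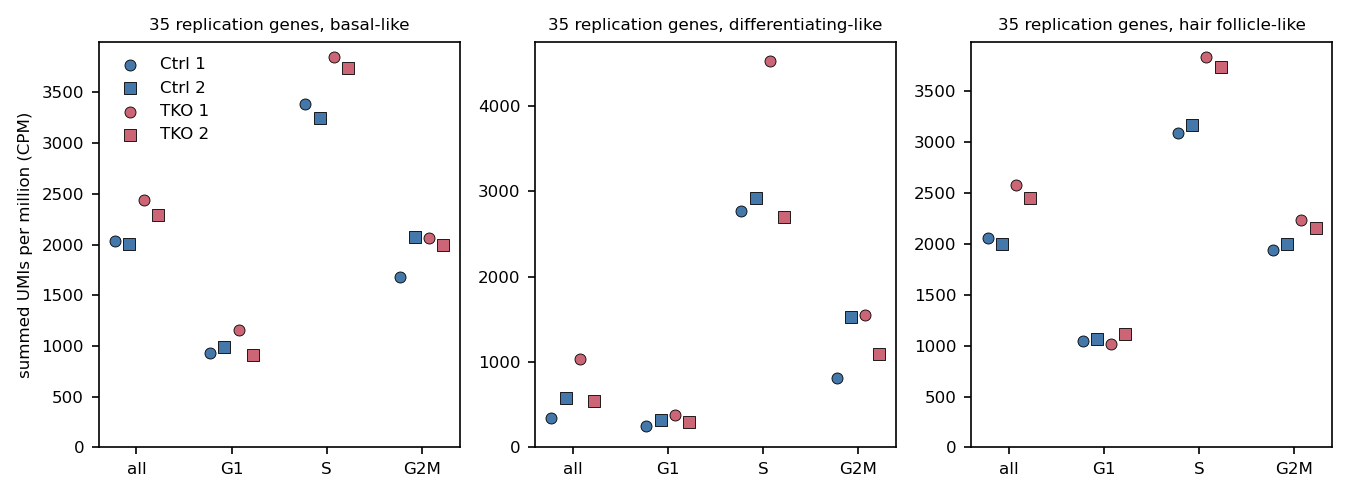
Summed level of the 35 replication genes (CPM, vertical axes from 0, scaled per panel) in all cells and in the G1, S and G2M cells of each class, one point per library. In basal-like cells the TKO libraries lie above the Ctrl libraries over all cells (2443 and 2287 against 2035 and 2004) and within S phase, and overlap them within G1 and G2M.

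Nucleotide supply was the group in which all members rose in basal-like cells, and the span of each gene on GRCm39 is given where its values are. Rrm2 (chr12:24757811-24764145), the small subunit of ribonucleotide reductase, which makes deoxynucleotides, stood at 70.3 and 70.7 CPM in Ctrl and 123 and 107 in TKO. The TKO libraries were well above the Ctrl libraries, and the fitted log2 change was 0.70 ± 0.10 (SE, adjusted p = 0.00818). Tyms (chr5:30263198-30278633), thymidylate synthase, which makes the thymine nucleotide, stood at 70.2 and 72.0 CPM against 115 and 110 (log2 change 0.66 ± 0.10, adjusted p = 0.00795). Rrm1 (chr7:102090890-102119709), which pairs with Rrm2, stood at 73.0 and 75.7 CPM against 105 and 105 (0.50 ± 0.10, adjusted p = 0.0208). In each of these 3 genes the spread within a genotype was smaller than the gap between genotypes.

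The same genes were read within each phase. Tyms stood at 17.9 and 19.5 CPM in Ctrl and 41.4 and 32.6 in TKO G1 cells, and at 82.2 and 102 against 123 and 119 in G2M cells. Rrm2 stood at 15.4 and 13.0 against 41.6 and 27.4 in G1 cells, and at 54.7 and 78.6 against 95.5 and 94.7 in G2M cells. Rrm1 stood at 29.9 and 33.2 against 41.9 and 37.3 in G1 cells, at 95.2 and 90.7 against 123 and 127 in S phase cells, and at 91.5 and 109 against 113 and 117 in G2M cells. In the phases listed here each of the 3 genes was higher in both TKO libraries than in both Ctrl libraries. The 3 were picked because they were called over all basal-like cells. The share of all genes that separate in every phase was not computed. The G1 values of Tyms and Rrm2 rest on 116 to 187 UMIs per library and gene, and those of Rrm1 on 158 to 319.

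Of the chromatin assembly and histone genes, Chaf1b (chr16:93680768-93703003), a subunit of the CAF-1 chaperone that places histones on new DNA, rose in TKO. It stood at 35.5 and 33.5 CPM in Ctrl and 60.9 and 47.3 in TKO (log2 change 0.65 ± 0.13, adjusted p = 0.0241). The TKO libraries were further apart from each other than the Ctrl libraries but did not reach down to them. Slbp (chr5:33792296-33809969), which binds the stem-loop of replication-dependent histone mRNAs, stood at 90.5 and 93.4 CPM against 126 and 114 (0.38 ± 0.10, adjusted p = 0.0514). Its groups did not overlap but it did not pass the test over all basal-like cells. Chaf1a, the partner of Chaf1b in CAF-1, changed by 0.04 on the log2 scale (adjusted p = 0.84).

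At the fork, Pclaf (chr9:65797519-65812346) stood at 175 and 204 CPM in Ctrl and 291 and 265 in TKO (log2 change 0.55 ± 0.12, adjusted p = 0.0291). Within G2M cells, where it is abundant, its levels were 247 and 329 against 293 and 317 and the groups overlapped. Within S phase cells they were 257 and 300 against 422 and 326, with no overlap. The other 7 genes of fork and synthesis, which include Pcna, the polymerase α subunit Pola1 and the primase subunit Prim1, ranged from -0.18 to 0.39 on the log2 scale and none passed the test. The group's median was 0.11.

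The 13 genes of helicase loading and activation had a median log2 change of 0.11 and ranged from -0.09 to 0.38, and 0 of 13 passed the test. The smallest p in the group was that of Mcm3 (chr1:20870791-20890536), a subunit of the Mcm2 to Mcm7 ring, at 71.2 and 73.3 CPM in Ctrl and 97.1 and 83.4 in TKO (log2 change 0.32 ± 0.11, adjusted p = 0.0984). The fitted changes of the ring's subunits ranged from -0.09 for Mcm6 to 0.38 for Mcm5, and differences between them were not tested. Neither of these 2 passed the test. Mcm10 (chr2:4994516-5017629), which helps the loaded helicase to start, stood at 12.2 and 11.6 CPM against 15.8 and 14.6 (0.35 ± 0.14, adjusted p = 0.161).

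Regulators and repair genes did not pass the test over all basal-like cells. Ccne1 (chr7:37797404-37808264), cyclin E1, which drives entry into S phase, stood at 21.3 and 19.2 CPM in Ctrl and 26.9 and 25.3 in TKO (log2 change 0.36 ± 0.12, adjusted p = 0.103). The 6 regulators ranged from -0.26 for E2f1 to 0.39 for Ccne2. Rad51ap1 (chr6:126899446-126916587), which acts in DNA repair, stood at 21.5 and 21.0 CPM against 29.7 and 25.1 (0.37 ± 0.13, adjusted p = 0.108). Brca1, the other repair gene, was at -0.06.

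**Figure D4:**
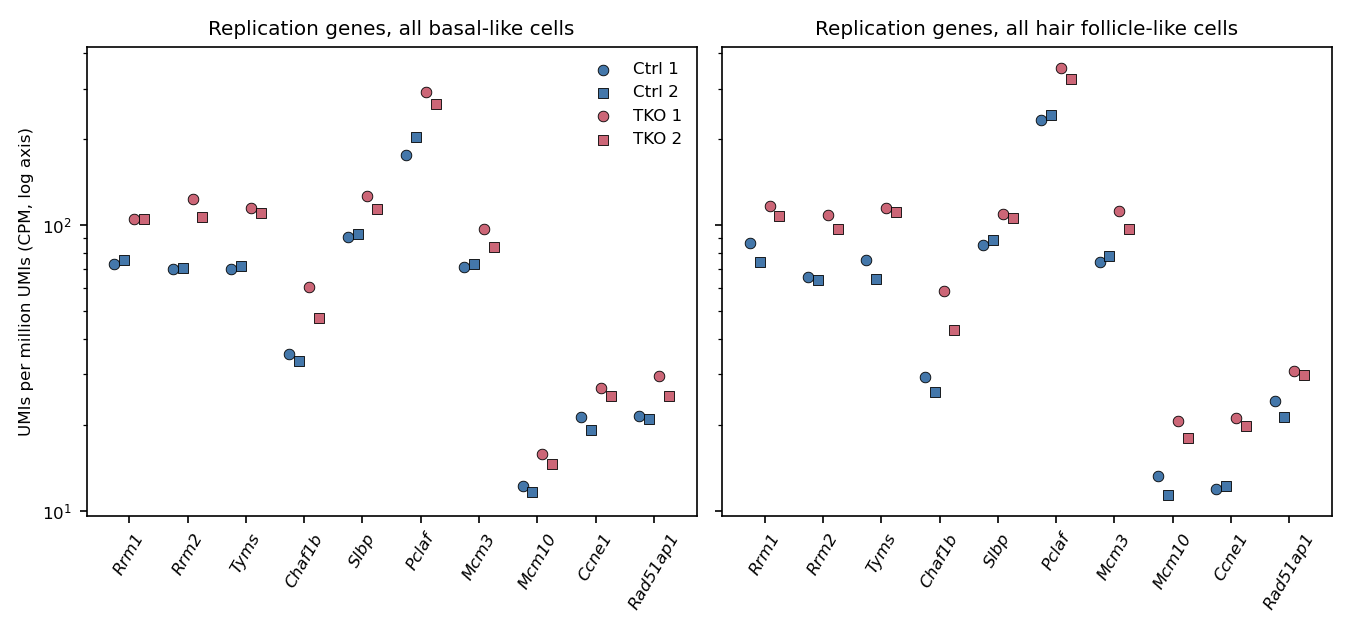
Levels of 10 replication genes (CPM, log axis) in all basal-like cells (left) and all hair follicle-like cells (right), one point per library, with Ctrl in blue and TKO in red. The 10 genes were chosen as called in some fit or of smallest p in a role group. That the 2 TKO points lie above the 2 Ctrl points in each is therefore close to given by the choice. Over all 35 genes this held for 18 in basal-like and 24 in hair follicle-like cells, beside 29.9% and 26% of all genes tested. Rrm2 in basal-like cells stood at 123 and 107 against 70.3 and 70.7.

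Comparing S phase cells only asks whether TKO cells called S phase hold more of these transcripts than Ctrl cells called S phase. In S phase basal-like cells 4 of the 35 genes rose and 0 fell: Ccne1, Chaf1b, Rrm2 and Slbp. Of all 13623 genes tested, 4.23% were raised and 2.48% lowered. At an unadjusted p under 0.05, 10 genes were raised, against 13.8% of all genes tested, and 0 lowered. DESeq2 called 3 raised and 0 lowered, beside 4.15% and 2.59% of all genes. The median log2 change was 0.15, against -0.01 over all genes tested, and both TKO libraries lay above both Ctrl libraries for 17 of 35, against 28.1% of all genes tested.

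Ccne1 stood at 38.3 and 34.5 CPM in Ctrl and 56.9 and 54.4 in TKO S phase cells (log2 change 0.61 ± 0.13, adjusted p = 0.0381). Chaf1b stood at 58.6 and 54.9 CPM against 89.0 and 79.9 (0.57 ± 0.12, adjusted p = 0.0352). Rrm2 stood at 136 and 137 CPM against 219 and 181 (0.55 ± 0.13, adjusted p = 0.0466). These levels did not overlap between genotypes, and neither did those of Slbp, at 136 and 133 CPM against 193 and 184 (0.48 ± 0.11, adjusted p = 0.0471). Rrm2 and Chaf1b were thus called both over all basal-like cells and within S phase. Rrm1 and Tyms had log2 changes of 0.43 ± 0.11 and 0.40 ± 0.12 within S phase and did not pass the test (adjusted p = 0.0697 and 0.0831).

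The S phase calls depended on single libraries and on the phase rule. Without Ctrl replicate 1 or Ctrl replicate 2, 0 of the 35 genes passed the test in S phase basal-like cells, where 0.737% and 0.717% of all genes were raised, and without TKO replicate 1 there were 7, beside 7.24%. Without Ctrl replicate 1 the fitted changes were 0.68 for Ccne1, 0.61 for Chaf1b, 0.53 for Rrm2 and 0.49 for Slbp. Without the Notch1-led cluster there were 4, beside 4.03% of all genes raised and 2.37% lowered, with a median log2 change of 0.17. With a stricter call, an S score above the median of the cells called S phase, none passed, beside 1.93% of all genes raised. The median log2 change was then -0.07, with 0.37 for Ccne1, 0.28 for Chaf1b, 0.23 for Slbp and 0.20 for Rrm2. With no G2M condition 0 were raised and 1, E2f1, was lowered, beside 6.51% of all genes raised and 4.32% lowered. The median was then -0.07, and the 4 genes stood at 0.42 for Chaf1b, 0.27 for Rrm2, 0.17 for Slbp and 0.10 for Ccne1. G2M genes also stood higher in the S phase cells: 15 of the 54 G2M genes were raised in TKO, where 4.23% of all genes were, and 0 lowered, with Ccnb2, a mitotic cyclin, at a log2 change of 2.35 ± 0.18 (adjusted p = 0.00207). The part of this shift in the S phase values was not tested beyond these phase rules.

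In hair follicle-like cells, 8 of the 35 genes rose in TKO and 0 fell: the 5 called in basal-like cells, Tyms, Rrm1, Rrm2, Chaf1b and Pclaf, and in addition Mcm3, Mcm10 and Ccne1. Of all 15421 genes tested, 6.63% were raised and 5.41% lowered. At an unadjusted p under 0.05, 17 were raised, against 15.3% of all genes tested, and 0 lowered. DESeq2 called 7 raised and 0 lowered, beside 5.89% and 4.66% of all genes. The median log2 change was 0.31, against -0.01 over all genes tested, and both TKO libraries lay above both Ctrl libraries for 24 of 35, against 26% of all genes tested. Summed over the 35 genes, the class held 2058 and 1999 CPM in Ctrl and 2581 and 2455 in TKO. Without Ctrl replicate 2, 1 of the 35 and 2.9% of all genes were raised, without TKO replicate 1, 2 of the 35 and 2.73%, and without Ctrl replicate 1 or TKO replicate 2, 7 of the 35 and 4.76% or 5.73%. Without Ctrl replicate 2 the fitted changes of the 8 genes ranged from 0.40 for Rrm1 to 0.81 for Chaf1b. The calls also depended on the clustering. Without Harmony 1 of the 8, Chaf1b, passed the test, beside 3.11% of all genes, and the fitted changes fell to 0.24 for Rrm2, 0.26 for Mcm3, 0.31 for Ccne1, 0.34 for Pclaf, 0.35 for Rrm1 and 0.48 for Tyms. At Leiden resolution 2, a finer clustering, 3 passed, Chaf1b, Pclaf and Tyms, beside 3.32%.

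The largest change of the 35 in hair follicle-like cells was that of Chaf1b, at 29.3 and 25.9 CPM in Ctrl and 58.6 and 43.0 in TKO (log2 change 0.92 ± 0.17, adjusted p = 0.0154). Ccne1 stood at 11.9 and 12.2 CPM against 21.2 and 19.8 (0.80 ± 0.15, adjusted p = 0.0176). Tyms stood at 75.4 and 64.9 CPM against 115 and 111 (0.73 ± 0.12, adjusted p = 0.00933). All 3 had groups that did not overlap, as did the other 5 genes called. Rrm2 stood at 65.5 and 63.9 CPM against 108 and 96.5 (0.70 ± 0.11, adjusted p = 0.0082). Mcm10 stood at 13.2 and 11.4 CPM against 20.7 and 18.0 (0.69 ± 0.17, adjusted p = 0.0411).

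Pclaf, Rrm1 and Mcm3 completed the list of genes that rose in hair follicle-like cells. Pclaf stood at 232 and 242 CPM in Ctrl and 353 and 324 in TKO (log2 change 0.56 ± 0.10, adjusted p = 0.0139). Rrm1 stood at 86.2 and 74.3 CPM against 116 and 108 (0.52 ± 0.12, adjusted p = 0.0308). Mcm3 stood at 74.3 and 78.0 CPM against 112 and 96.6 (0.49 ± 0.11, adjusted p = 0.0317). The members not called included Slbp, at 84.8 and 88.6 CPM against 109 and 106 (0.35 ± 0.10, adjusted p = 0.0622), and Rad51ap1, at 24.2 and 21.2 CPM against 30.9 and 29.9 (0.46 ± 0.13, adjusted p = 0.0659). By role group, 3 of 3 nucleotide supply, 2 of 13 helicase, 1 of 8 fork, 1 of 3 histone supply, 1 of 6 regulator and 0 of 2 repair genes rose.

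In S phase hair follicle-like cells 3 of the 35 genes rose, Tyms, Rrm2 and Ccne1, and 0 fell, against 3.08% of 12465 genes raised and 2.67% lowered. At an unadjusted p under 0.05, 14 were raised, against 11.3% of all genes tested, and 0 lowered. DESeq2 called 1 raised and 0 lowered, beside 2.03% and 1.79% of all genes. Ccne1 stood at 22.0 and 20.7 CPM in Ctrl and 37.3 and 36.1 in TKO (log2 change 0.80 ± 0.18, adjusted p = 0.0366). Rrm2 stood at 111 and 117 CPM against 181 and 168 (0.63 ± 0.13, adjusted p = 0.0257), and Tyms at 102 and 90.5 against 141 and 142 (0.57 ± 0.14, adjusted p = 0.0434). Both TKO libraries lay above both Ctrl libraries for 22 of 35 genes, against 25.1% of all genes tested, and the median log2 change was 0.29. Without Ctrl replicate 1 or Ctrl replicate 2 none of the 3 passed the test and 1 other member did, Chaf1b or Pclaf, beside 2.83% and 1.57% of all genes raised. Without TKO replicate 1 only Rrm2 passed, beside 2.24%, and without TKO replicate 2 there were 5, the 3 among them, beside 4.6%. None passed without Harmony, where the changes were 0.32 for Ccne1, 0.26 for Tyms and 0.18 for Rrm2, or with phase called at 10000 UMIs, where they were 0.28, 0.32 and 0.39. With cells thinned to 5000 UMIs before summing none of the 3 passed, at 0.51, 0.35 and 0.36 in the same order, and Rad51ap1 did. With the stricter S phase call none passed and the median was 0.03, with 0.57, 0.23 and 0.27 for the 3 genes.

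**Figure D5:**
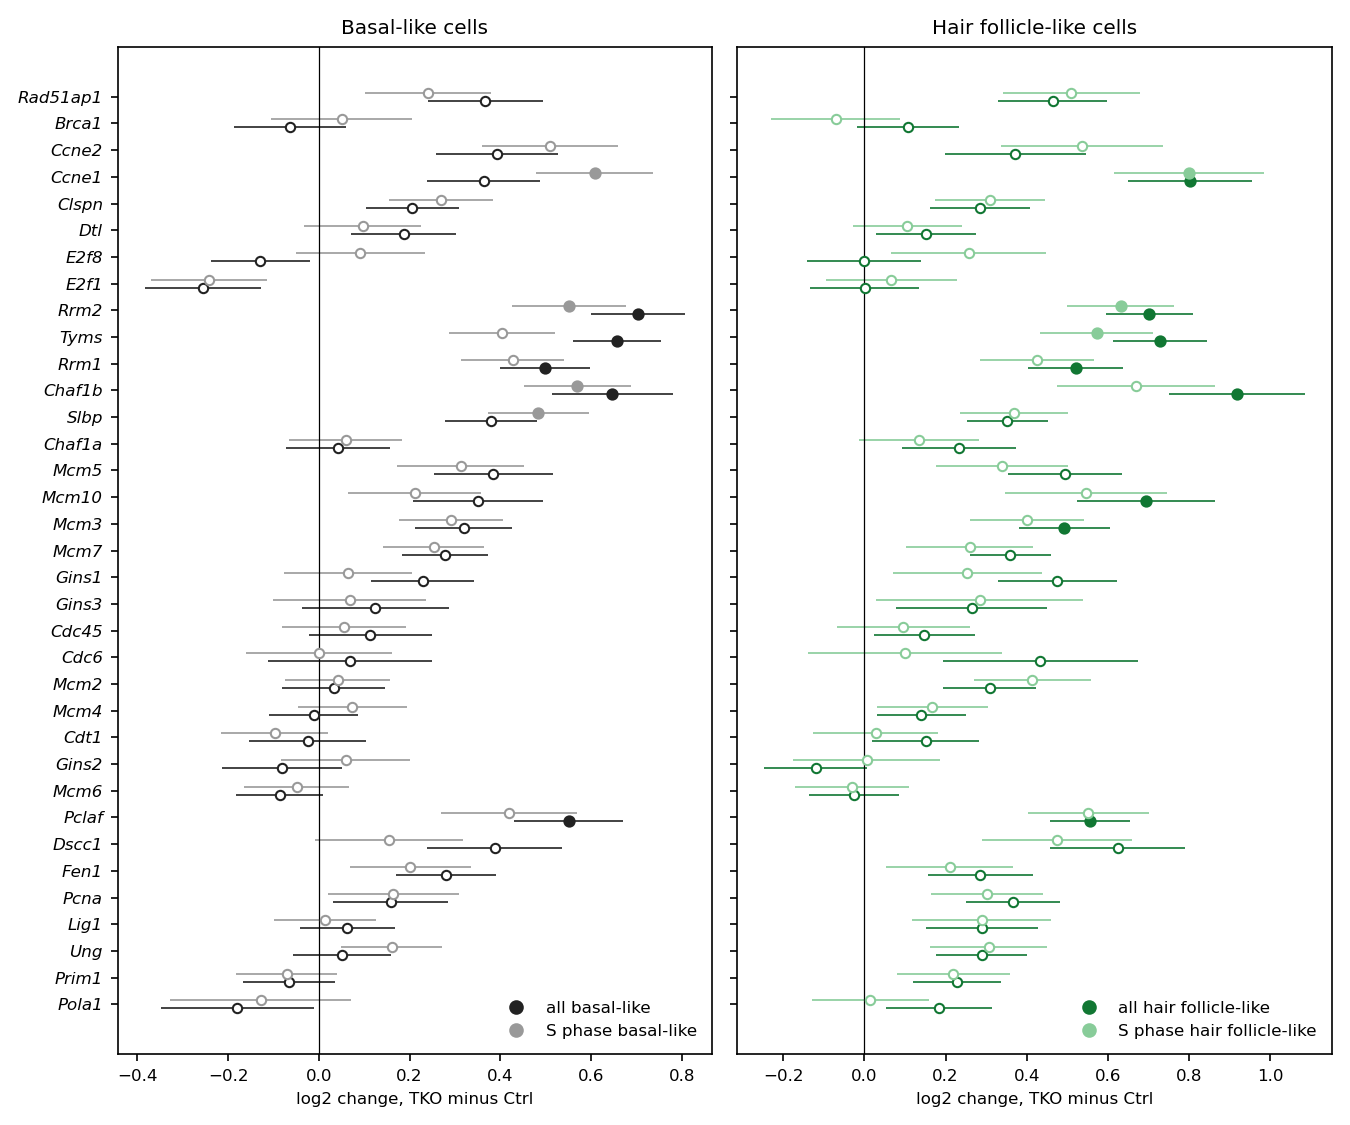
Log2 change, TKO minus Ctrl (horizontal axes), of the 35 replication genes in basal-like (left) and hair follicle-like cells (right), over all cells and over S phase cells; bars are standard errors and filled points passed an adjusted p of 0.05. Filled points lie at positive values only, with the 3 nucleotide supply genes between 0.50 and 0.73 over all cells of both classes.

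In differentiating-like cells, whose number depends on the α6 sort, replication transcripts were sparse and TKO replicate 1 stood apart. The 35 genes summed to 339 and 577 CPM in Ctrl and 1034 and 544 in TKO, so TKO replicate 2 lay within the Ctrl range. None of the 35 genes passed edgeR's test, against 0.511% of 13884 genes raised and 0.122% lowered. At an unadjusted p under 0.05, 6 were raised and 0 lowered, against 8.64% of all genes raised at that level. DESeq2 called 2 raised, beside 2.62% of all genes. The median log2 change was 0.88, against 0.01 over all genes tested, and it was 0.19 without TKO replicate 1, 0.38 without Ctrl replicate 1 and 1.46 without Ctrl replicate 2. With the Notch1-led cluster counted in this class the median was 0.43 and again 0 passed. Both TKO libraries lay above both Ctrl libraries for 12 of 35 genes, against 32.7% of all genes tested. Rrm2 stood at 5.84 and 18.1 CPM against 54.9 and 24.2 (log2 change 1.65 ± 0.60, adjusted p = 0.298). Tyms had the smallest p, at 16 and 24.5 CPM against 54.5 and 34.6 (1.04 ± 0.28, adjusted p = 0.19).

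The same library had the highest G2M share of this class, 33.0%. Within G1 differentiating-like cells the 35 genes summed to 255 and 320 CPM in Ctrl and 381 and 301 in TKO, with overlapping groups. In the 9 to 14 S phase cells per library, 30 of the 35 genes could be tested and none passed, against 0.0583% of 5143 genes raised and 0.0972% lowered. At an unadjusted p under 0.05 0 were raised and 1 lowered, against 9.29% of all genes in either direction. DESeq2 called 0, beside 0.16% of all genes raised and 0.32% lowered. Basal markers summed to 4180 to 9339 CPM in Ctrl and 5867 to 6328 in TKO cells of this class, so the genotypes overlapped.

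The genotype effect was compared between classes directly. No gene of the 35 changed differently in hair follicle-like and basal-like cells by edgeR's interaction test, against 2.31% of 17457 genes in either direction, although 10 passed an unadjusted p of 0.05, as 14.8% of all genes did. The median difference in log2 change was 0.19, against 0.03 over all genes tested. Pola1, the catalytic subunit of polymerase α, had the smallest adjusted p of 0.0664, with a difference of 0.40. Pola1 was singled out after its value was seen. Between differentiating-like and basal-like cells 0 of 35 differed, against 0.0114% of 17472 genes, with 4 at an unadjusted p under 0.05, against 13.7% of all genes. Mcm3, Mcm10 and Ccne1, called in hair follicle-like but not in basal-like cells, are therefore not shown to differ between these classes (adjusted p = 0.286, 0.318 and 0.16).

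A list of 71 other replication genes, which contains origin recognition, polymerase, clamp loader and nucleotide genes and 7 of the genes used for the S score, was read in the same fits. In basal-like cells 10 of the 71 were raised and 1 lowered, beside the 8.07% and 4.69% of all genes, with a median log2 change of 0.20. Gmnn, geminin, which inhibits Cdt1, rose by 0.86 ± 0.12 on the log2 scale (adjusted p = 0.00738), and Rfc3, a subunit of the clamp loader, by 0.68 ± 0.10 (adjusted p = 0.00853). Mcm9, a helicase of recombination repair, was the gene that fell, with a log2 change of -0.49 ± 0.11 (adjusted p = 0.0311). Of these 71, 8 were raised and 0 lowered in hair follicle-like cells (6.63% and 5.41% of all genes), led again by Gmnn (0.93 ± 0.14, adjusted p = 0.00706) and Rfc3 (0.69 ± 0.11, adjusted p = 0.011). Within S phase 5 were raised in basal-like cells, where 4.23% of all genes were, with Ccna2, cyclin A2, at 0.90 ± 0.15 (adjusted p = 0.0181) and Rfc3 at 0.65 ± 0.11 (adjusted p = 0.0215), and 1, Gmnn, in hair follicle-like cells, where 3.08% were. Gmnn is among the genes used for the S score. No gene of this list was called in differentiating-like cells.

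Of the 71, the 64 that took no part in the phase calls were compared between S phase and other basal-like cells, and 53 were higher in S phase and 2 lower, beside the 9.99% of all genes that were higher, with a median difference of 0.60. The 2 of smallest p that were higher were Atad5, which helps to unload PCNA, at 1.18 ± 0.06 and Prim2, the large subunit of primase, at 1.18 ± 0.06. The 2 that were lower were Ccna2 at -0.81 ± 0.06 and Dbf4, the activator of the Cdc7 kinase, at -0.68 ± 0.05. The 7 that were used to call S phase are left out here, since the call itself fixes their direction. Of the lists used to call phases, 1 of 20 S genes and 22 of 54 G2M genes were raised in TKO basal-like cells, against 8.07% of all genes, and none was lowered. The same counts in hair follicle-like cells were 3 of 20 and 5 of 54, against 6.63%, again with none lowered.

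Other cell types were measured by their markers in the same cells, as the summed level of each of 11 lists. In basal-like cells 9 of the 11 did not overlap between the genotypes, 5 higher and 4 lower in TKO. Basal markers summed to between 19270 and 22316 CPM in Ctrl and between 14805 and 19203 in TKO, fibroblast markers to between 976 and 1207 against 646 and 896, and hair follicle markers to between 468 and 494 against 371 and 381. Merkel markers were also lower in both TKO libraries, at 11.6 to 19.3. The 5 that were higher were at low levels, immune markers at 2.88 to 4.23 against 5.61 to 6.36, muscle at 0.561 to 1.11 against 2.61 to 7.57, endothelial at 17.3 to 18.6 against 24.6 to 37.8, melanocyte at 7.61 to 7.81 against 9.76 to 11.1 and Schwann at 35.5 to 39.1 against 41.7 to 52.2. Differentiation markers overlapped, at 3749 to 5836 against 5665 to 6460.

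Among hair follicle-like cells 7 of the 11 lists did not overlap, 3 higher and 4 lower in TKO. Hair follicle markers summed to between 2696 and 2744 CPM in Ctrl and between 1740 and 2491 in TKO, and basal markers to between 6738 and 6827 against 6176 and 6325. Differentiation markers summed to between 1032 and 1363 against 1938 and 2575, immune markers to between 13.2 and 16.7 against 32.1 and 34.3 and muscle markers to between 0.860 and 1.18 against 9.39 and 36.9. Melanocyte and Merkel markers were the other lists lower in both TKO libraries, and erythroid markers ranged from 9.62 to 318 in TKO against 15.4 to 19.9 in Ctrl. In differentiating-like cells 6 of the 11 lists did not overlap, all 6 of them higher in TKO. Their part in the values of the replication genes was not tested. Of sequence copies of the members named in the matrices, Pcna-ps2 held 2012 UMIs against 37979 for Pcna, so Pcna reads could be split with it, while Tyms-ps held 1 against 21873 for Tyms. Of the 35 genes, 6 overlap an annotated gene on the same strand, among them Pclaf, Rrm1 and Chaf1b, and their counts may include reads from those annotations.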

How the data were processed

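Single-cell libraries were prepared by the authors with the 10x Genomics Chromium 3' v3 kit, and the deposited values are raw UMI counts per gene and barcode, not normalized. Per the file headers they were written by Cell Ranger 7.1.0, another version than the study's methods name, and the build is GRCm39. Gene positions came from GENCODE vM39 on GRCm39.

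Cells with at least 2000 genes and under 10% mitochondrial UMIs were kept (11221). The top Scrublet scores were left out as doublets at 0.8% per 1000 barcodes, which left 10764. Counts scaled to 10000 per cell gave 2000 variable genes, 30 components, Harmony alignment (an own implementation of the algorithm) and Leiden clusters at resolution 1 (scanpy 1.11.5). Keratinocytes were clustered without the 35 genes, the phase genes, genes following the phase scores and genes that differed between the genotypes, and clusters were named from marker lists. Counts were summed per library and class and tested with edgeR 4.0.16 (quasi-likelihood, TMM, filterByExpr, Benjamini-Hochberg over all genes, called under 0.05), with DESeq2 1.42.0 as an alternative. Each library was 1 sample, n = 2 per genotype. The tests were also run on simulated counts with 1 fixed dispersion for every gene, which was not estimated from these libraries. That run does not measure the error of the calls given here. CPM is UMIs per 1000000 UMIs of the same cells. Values in every library are given for genes called in any class or S phase fit and for the smallest p of each role group in basal-like cells, and members named outside this rule were chosen after their values were seen. The members and lists were chosen with earlier results of these data known. Adjusted p-values come from edgeR unless stated.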

Additional observations from a re-analysis of the deposited data

How the results depend on the processing

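The excess of all 35 genes in S phase over other basal-like cells was found under each of the 16 alternatives run (filters, scalings, clusterings, phase rules, libraries left out). In S phase differentiating-like cells, where few genes of any kind were called, the 0 calls among the members say nothing about stability. The counts between genotypes were less stable. In basal-like cells the 5 genes became 10 without Harmony (7.48% of all genes raised) and ranged from 0 to 6 with 1 library left out. In S phase basal-like cells the 4 genes became 8 with no expression filter (4.91%). They became 2 with cells thinned to 5000 UMIs (2.19%) or Leiden resolution 2 (3.92%). The count was 1 with Leiden resolution 0.5 (4.21%), without Harmony (3.37%) or with unnamed clusters counted as basal-like (3.82%, chosen after seeing the data). It was also 1 without Uhrf1, Hells and Cdca7 in the S score (3.67%) or with phase called at 10000 UMIs (5.01%). With no G2M condition 0 were raised (6.51%) and 1, E2f1, was lowered (4.32% of all genes). They were 0 under the stricter S phase call (1.93%), and the calls moved with 1 library left out. In hair follicle-like cells the 8 genes became 12 with no expression filter (5.83%) or Leiden resolution 0.5 (7.13%), 4 with thinned cells (3.5%), 3 with Leiden resolution 2 (3.32%) and 1 without Harmony (3.11%), and ranged from 1 to 7 with 1 library left out. In S phase hair follicle-like cells the count of 3 became 1 with DESeq2 (2.03%), no filter (1.28%) or Leiden resolution 0.5 (2.92%). Rrm2 kept its call in these. The count was also 1 with thinned cells (1.7%) or no G2M condition (4.68%). There the 3 lost their calls and another member, Rad51ap1 or Chaf1b, was called. The count was 0 with doublets kept (2.31%), Leiden resolution 2 (1.54%) or no Harmony (1.43%). It was also 0 with the shorter S score (2.13%), the stricter call (1.33%) or phase called at 10000 UMIs (1.81%). The calls moved with 1 library left out. In differentiating-like cells the 0 calls became 2 with DESeq2 and 15 with no expression filter, where 2.62% and 3.84% of all genes were raised against 0.511%. The 0 differences between basal-like and differentiating-like cells became 3 with no filter. There 1.58% of all genes had a positive and 0.933% a negative difference, against 0.0114% in either direction. The 0 between basal-like and hair follicle-like cells became 1 with no filter (2.22% positive and 1.97% negative over all genes). It became 2 with Leiden resolution 0.5 (2.08% and 1.68%). It was 2 of the opposite sign without Harmony (287 positive and 340 negative of 17342 genes). The reported fit had 0.974% positive and 1.34% negative. The count also moved with 1 library left out. The S phase share difference became 10.8 percentage points in basal-like, 5.90 in differentiating-like and 10.8 in hair follicle-like cells with no G2M condition, 2.53 in differentiating-like cells with phase called at 10000 UMIs and -2.27 in hair follicle-like cells without Harmony. The causes were not tested. No called gene changed sign under any alternative.

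Same-numbered libraries did not deviate together (correlations of -0.29, -0.47 and -0.14 in the basal-like, differentiating-like and hair follicle-like classes), so the numbers do not pair the samples. The negative values mean that same-numbered libraries tended to deviate in opposite directions. The paper states that both sexes were included in each genotype group for sequencing. The sex of each library was not part of the fits, and its part in these deviations was not tested. With the replicate number as a replicate block, 3 genes were called in basal-like, 0 in S phase basal-like, 6 in hair follicle-like, 4 in S phase hair follicle-like and 0 in differentiating-like cells, beside 5.44%, 2.58%, 4.92%, 3.42% and 0.158% of all genes raised. With the pairing crossed, chosen after seeing the data, the counts were 12 in basal-like, 11 in hair follicle-like and 18 in differentiating-like cells, and calls rose over all genes too, to 13.8%, 8.15% and 6.97% raised. The differentiating-like S phase values rest on 9 to 14 cells per library.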
